A study of Mus musculus with 6 samples.

Results

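The 500 regions of the mouse genome with the highest enrichment in a MeDIP-seq study, among those found in every sample, are described here. MeDIP-seq uses an antibody against methylated cytosine to collect methylated fragments of genomic DNA, which are then sequenced, and a pile of reads over the background is called a peak. Peaks of the 6 deposited peak lists were joined wherever they overlapped by at least 1 bp on chromosomes 1 to 19, which gave 166838 regions. Of these, 40840 had a peak in all 6 samples (shared regions), and the 500 with the highest mean fold enrichment over the 6 samples were kept (members). Because fold enrichment chose them, its level is given below as a description, with no test.

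The cells were mouse primary mesangial cells, the contractile cells that hold together the capillaries of the kidney glomerulus. Of the 6 samples, 3 were controls and 3 were from cells exposed to TGF-β1 (10 ng/ml over 72 h), a cytokine that drives scarring in chronic kidney disease. All samples shared medium with 25.5 mM glucose and 20% foetal bovine serum, and cells between passages 3 and 6 were used. The labels do not say whether samples of a group came from separate cultures or animals, so that p-values measure the spread between these samples only, which may be technical. Methylation peaks do not measure expression, so the label of the cells could not be checked against their markers.

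Methylation in mammals falls mostly on the cytosine of the dinucleotide CpG. Much of it lies on transposable elements, which make up a large share of the genome. LINE-1 is a retrotransposon that codes for an RNA-binding protein (ORF1) and for an endonuclease and reverse transcriptase (ORF2), and the intracisternal A particle (IAP) is an endogenous retrovirus whose coding part lies between long terminal repeats (LTRs). Most LINE-1 copies are cut short or mutated, and many are nearly identical, so that a short read from one copy often maps to many places.

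The sequences below show what the members were made of. The member with the highest fold enrichment lay between genes near Tmx4 (a transmembrane protein of the thioredoxin family), and that of rank 3 lay near Lrrc4c (a synaptic adhesion protein), elsewhere on the same chromosome. Each is shown over 200 bp around its summit, at chr2:134491244-134491443 on the minus strand and chr2:95256079-95256278 on the plus strand of mm9, with CpG in capitals. They were the same stretch of LINE-1 ORF1, with an identity of 93.4% over 198 aligned positions, 0 mismatches and 2 gaps.
Near Tmx4, rank 1: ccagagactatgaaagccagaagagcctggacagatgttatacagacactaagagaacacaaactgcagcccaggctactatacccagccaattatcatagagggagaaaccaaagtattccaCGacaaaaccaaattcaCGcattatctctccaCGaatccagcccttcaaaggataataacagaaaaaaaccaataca
Near Lrrc4c, rank 3: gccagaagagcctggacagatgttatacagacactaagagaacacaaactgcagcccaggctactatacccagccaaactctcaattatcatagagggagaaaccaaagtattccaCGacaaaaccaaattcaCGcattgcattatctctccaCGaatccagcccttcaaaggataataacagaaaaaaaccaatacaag

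The other classes are shown by 2 members richer in CpG, again in capitals. At chr1:74706865-74707064 of mm9 (minus strand), 1.35 kb from the gene Ttll4, which codes for an enzyme that adds glutamate to tubulin, the summit lay in an IAP-type LTR with 9 CpG in 200 bp. At chr2:173486885-173487084 (plus strand), the summit lay in coding sequence of exon 2 of Rab22a, a small GTPase of endosomes. The 200 bp shown were not limited to the exon, were found once in the genome and also held 9 CpG.
Near Ttll4, rank 394: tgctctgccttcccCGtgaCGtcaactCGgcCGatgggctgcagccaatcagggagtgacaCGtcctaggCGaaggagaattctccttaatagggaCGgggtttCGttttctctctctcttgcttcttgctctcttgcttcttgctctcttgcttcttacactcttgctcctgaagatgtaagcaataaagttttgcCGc
Rab22a exon, rank 280: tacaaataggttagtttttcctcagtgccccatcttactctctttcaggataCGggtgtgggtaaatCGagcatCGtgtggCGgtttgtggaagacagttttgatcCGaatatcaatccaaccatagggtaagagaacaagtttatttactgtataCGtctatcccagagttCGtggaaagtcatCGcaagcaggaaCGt

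LINE-1 members often differed from other copies by a few added or missing bases next to the summit. Each pair below holds a stretch of a member and the same stretch of the closest intact LINE-1 of chromosome 1, with the bases that only one of the pair has in capitals. There were 0 substitutions in each pair. The members lay at chr2:134491312-134491391 (minus strand), chr2:95256173-95256257, chr14:83358445-83358528 and chr6:46342489-46342568 (plus strand) of mm9. The intact stretches lay at chr1:4552322-4552409, chr1:4552379-4552458, chr1:4551600-4551679 and chr1:4554903-4555012 (plus strand), all in the same copy. Where several copies matched equally well, the first in the order of their names was taken.
Near Tmx4, rank 1: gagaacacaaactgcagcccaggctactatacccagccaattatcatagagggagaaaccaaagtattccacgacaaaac
LINE-1 on chromosome 1: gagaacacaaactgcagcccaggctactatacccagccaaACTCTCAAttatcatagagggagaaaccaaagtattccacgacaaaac
Near Lrrc4c, rank 3: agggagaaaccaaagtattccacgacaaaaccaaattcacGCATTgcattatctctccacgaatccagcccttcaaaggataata
LINE-1 on chromosome 1: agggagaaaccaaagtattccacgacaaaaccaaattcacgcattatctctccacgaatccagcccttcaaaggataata
Near Pcdh17, rank 7: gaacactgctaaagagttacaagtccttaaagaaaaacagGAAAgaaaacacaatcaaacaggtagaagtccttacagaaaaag
LINE-1 on chromosome 1: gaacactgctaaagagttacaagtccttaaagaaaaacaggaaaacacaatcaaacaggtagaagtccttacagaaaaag
Cntnap2 intron, rank 10: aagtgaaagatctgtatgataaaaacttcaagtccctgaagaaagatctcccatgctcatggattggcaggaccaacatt
LINE-1 on chromosome 1: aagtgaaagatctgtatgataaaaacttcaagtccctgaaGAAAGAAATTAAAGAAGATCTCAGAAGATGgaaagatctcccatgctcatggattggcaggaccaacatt

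The region near Tmx4 lacked 8 bases, and the region near Lrrc4c had 5 extra bases. The region near Pcdh17 (a cell adhesion protein) had 4 extra bases, and the region in Cntnap2 (a neuronal adhesion protein) lacked 30 bases.

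Peak calling had used from 9407103 to 13291419 reads per sample, and each TGF-β1-treated sample had more reads than any control sample, so that depth and treatment cannot be told apart. For each peak the lists give the pileup, which counts the extended reads that cover the summit, and the fold enrichment, which is the pileup plus 1 over the local background plus 1. The background came from the same sample, over a window of 10 kb that includes the peak's own reads, or over the genome where that was higher, as for 24.6% to 32.3% of the peaks of a sample. A peak standing alone in such a window cannot exceed a fold enrichment of 34.4 to 35.5 in these samples, and the highest value of any peak was 28.0 to 28.9. Control replicate 1 stood apart from the other samples: its log2 pileup correlated with theirs with r from 0.675 to 0.727 over the 40840 shared regions, whereas r was 0.755 to 0.799 between the others. Over the 500 members r was 0.82 to 0.935 between samples. Regions are not replicates, and these r describe the libraries only.

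The mean fold enrichment of the members ran from 14.2 to 28.4 with a median of 16.8, beside a median of 7.35 over all shared regions. The mean pileup of the members was 63.5 reads in the median (38.5 to 224), beside 26.5 reads over all shared regions. The median fold enrichment of the members was 17.2, 17.0 and 17.2 in the controls, against 17.2, 17.2 and 17.3 after TGF-β1. No sample stood out in these medians. A fold enrichment above 10 in all 6 samples was reached by 489 members (97.8%), and one above 20 in all 6 by 86. Control replicate 1 had 8 members below 10, control replicate 2 had 1, TGF-β1 replicate 2 had 2, and the other samples had none. The lowest single value was 5.84 in TGF-β1 replicate 2, at a member near Cntnap5b that is named here after its values were seen.

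Ranked within a single sample, from 395 to 416 of the members were among that sample's own 500 most enriched shared regions. The coefficient of variation of the fold enrichment over the 6 samples had a median of 6.71% in the members and 13.9% in all shared regions. That of the scaled pileup (pileup per 1000000 reads of the sample) was 12.4% and 16.9%. Fold enrichment has the upper limit given above.

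The members stood alone in the genome more than most shared regions. Every member held exactly 6 peaks, 1 per sample, as did 96.5% of all shared regions. Their median length was 447 bp, beside 492 bp, and the summits of the 6 samples lay within a median range of 53 bp, beside 80 bp. No other joined region lay within 5 kb of the summit for 426 members (85.2%), against 41.3% of all shared regions. A neighbouring peak raises the local background, so that isolation is in part what the rule selected on.

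**Figure D1:**
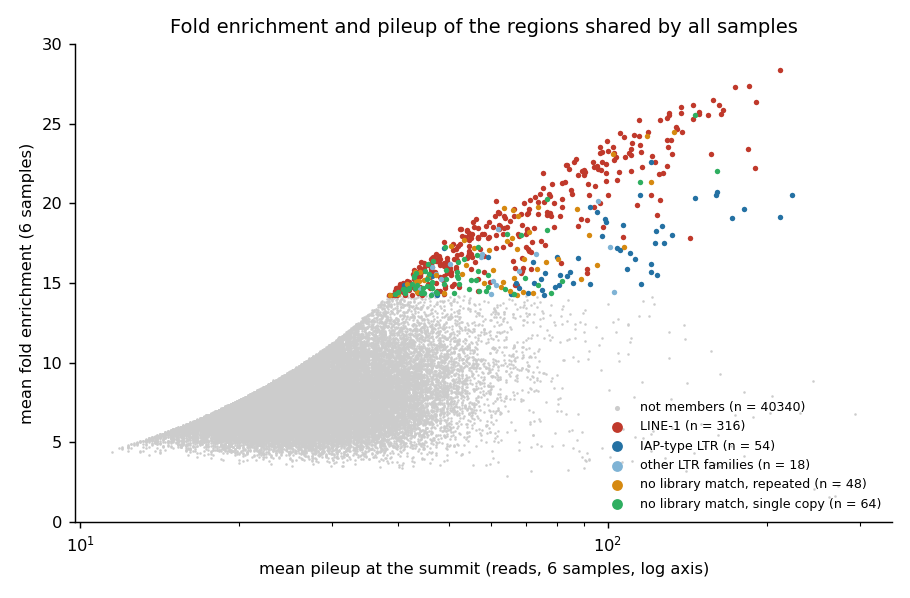
Mean fold enrichment (vertical axis) against mean pileup at the summit in reads (horizontal log axis) over 6 samples, 1 point per shared region, members in colour by sequence class and other regions in grey. The upper edge of the cloud rises with pileup to 28.4, many LINE-1 members lie along it, and most IAP-type LTR members lie to the right of it, with more reads at the same fold enrichment.

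Across the 500 members, mean fold enrichment and mean pileup had a Spearman rho of 0.75, and across all 40840 shared regions 0.44. Both values of a region come from the same reads. The highest mean pileup of a shared region was 294 reads, at a region that was not a member.

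The 12 members of highest rank were all LINE-1. Near Tmx4 (chr2:134491125-134491612) the fold enrichment was 28.8, 28.9 and 28.1 in control and 28.3, 28.1 and 28.0 in TGF-β1-treated samples, giving a mean of 28.4 ± 0.386 (SD, n = 6). Near Klf4, a transcription factor of pluripotent and epithelial cells, the region at chr4:55879360-55879822 had 27.5, 27.6 and 28.3 in control and 27.1, 26.9 and 26.6 in TGF-β1-treated samples. Near Lrrc4c (chr2:95256008-95256451) the values were 27.0, 27.7 and 27.7 in control and 26.9, 27.4 and 27.2 in TGF-β1-treated samples. The groups overlapped near Tmx4 and Lrrc4c and did not near Klf4, where every control sample was higher.

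The distance to the gene named was 21.5 kb for Tmx4, 334 kb for Klf4 and 902 kb for Lrrc4c, so that these names only place the regions. The next in rank lay near Nlrp2 (a gene of the NLR family, mean 26.5 ± 0.856, SD, n = 6), Meis2 (a homeobox factor, 26.4 ± 0.696), Slc39a10 (a zinc transporter, 26.2 ± 0.643) and Pcdh17 (26.1 ± 0.981). They were followed by Ntrk3, the receptor of neurotrophin-3, with its summit in intron 11 (26.0 ± 0.645), by Ctnna2, an alpha-catenin of neurons (25.9 ± 1.40), and by intron 11 of Cntnap2 (25.8 ± 0.832). The region of rank 11 lay near Vmn2r5, a vomeronasal receptor gene (25.7 ± 0.403). The largest spread among these 11 was near Ctnna2, where control replicate 1 had 23.4 and the other samples 24.9 to 27.0.

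**Figure D2:**
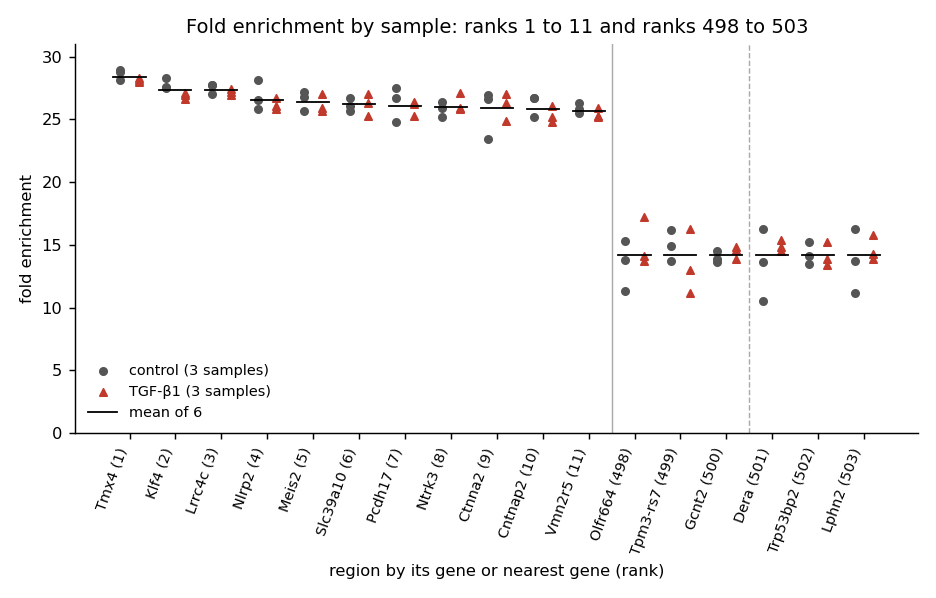
Fold enrichment in each sample for the 11 members of highest rank and for the regions of ranks 498 to 503, with grey circles for the 3 control samples, red triangles for the 3 TGF-β1-treated samples and a bar for the mean of 6. The 11 highest lie between 23.4 and 28.9 in every sample, and the regions on both sides of rank 500 (dashed line) lie between 10.5 and 17.2.

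At the lower end, the last members were near Olfr664 (mean 14.223), Tpm3-rs7 (14.223) and Gcnt2 (14.219), and the regions just outside were near Dera (14.202), in a coding exon of Trp53bp2 (14.201) and near Lphn2 (14.201). The SD over the 6 samples was from 0.467 to 2.01 for these 6 regions, far above the steps between their means. The boundary at rank 500 separates regions that did not differ beyond their spread.

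The sequence class of each region was set at its summit. A library of intact elements was collected from chromosome 1 of the reference, with 222 LINE-1 copies that have both open reading frames and with elements that have paired LTRs. Each LINE-1 copy was taken with a fixed 1500 bp before ORF1 and 700 bp after ORF2. The ends of the copies were not determined, so that a match to flanking sequence counts as LINE-1 too. Whole joined regions were matched to the library, and a match had to span at least 100 bp and include the summit. The largest LTR family of the library had 86 elements with LTRs of 353 bp in the median, which is about the size known for IAP, and is called IAP-type here. Regions with no match were divided by how often the 49-base words of the 200 bp around the summit are found in the genome. Those whose median word was found at least 2 times are called repeated and the rest single-copy, so that some words of a single-copy region can be repeated. The sequenced tags had the length of these words. No repeat annotation was used, so that repeats with no intact copy on chromosome 1 count as unmatched.

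LINE-1 made up 316 of the 500 members (63.2%), beside 2831 of the 40840 shared regions (6.93%). Of the shared LINE-1 regions, 11.2% were members, beside 0.216% of the single-copy regions. IAP-type LTRs held 54 members (10.8%, beside 10.6%), other LTR families held 18 (3.6%, beside 4.47%), repeated sequence with no match held 48 (9.6%, beside 5.42%) and single-copy sequence held 64 (12.8%, beside 72.6%). LINE-1 held 46 of the 50 members of highest rank and 80 of the 86 members above 20 in all samples. It held 18% of the regions of ranks 501 to 1000, where single-copy sequence held 48.0%. The median rank was 192.5 for LINE-1, 270.5 for IAP-type LTRs, 309 for unmatched repeats, 337 for other LTRs and 395 for single-copy members.

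**Figure D3:**
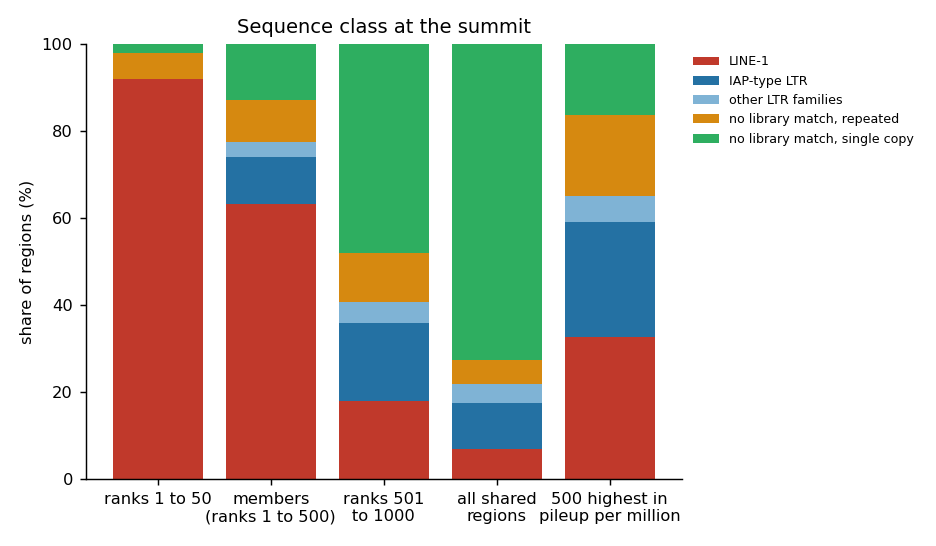
Share of regions (%, stacked to 100) by sequence class at the summit for ranks 1 to 50, the members, ranks 501 to 1000, all shared regions and the 500 regions highest in scaled pileup. LINE-1 falls from 92.0% to 63.2% to 18% down the ranks and is 6.93% over all shared regions, while by scaled pileup it is 32.6% and IAP-type LTRs are 26.6%.

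The level of the classes was compared by pileup too. The median scaled pileup of LINE-1 members was 6.01, 5.85 and 5.48 in control and 5.26, 5.38 and 5.19 in TGF-β1-treated samples. IAP-type LTR members had 7.80, 9.30 and 8.61 in control and 7.80, 7.95 and 7.56 in TGF-β1-treated samples. Single-copy members had 4.22, 4.62 and 4.61 in control and 4.16, 4.19 and 4.33 in TGF-β1-treated samples. Among members, IAP-type LTRs were above LINE-1 in every sample, and LINE-1 was above single-copy sequence. Fold enrichment, which chose the members, divides by the background, so this order among members depends in part on the rule. Over all shared regions, sample medians were 2.52 to 2.96 for IAP-type LTRs, 2.11 to 2.34 for LINE-1 and 2.06 to 2.34 for single-copy sequence. There LINE-1 was above single-copy sequence only in TGF-β1 replicate 2 (2.14 beside 2.06). By fold enrichment LINE-1 members were the highest of all classes, with sample medians from 17.8 to 18.6, beside 16.3 to 17.1 for IAP-type LTRs. The mean background at the members was 4.48 reads in the median for IAP-type LTRs and 2.52 for LINE-1.

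Along the element, LINE-1 members and other LINE-1 regions differed in position. Of the 2831 shared LINE-1 regions, 66.8% had their summit before ORF1, on the side of the promoter of the element. This part was a fixed 1500 bp, which may reach beyond the element. Of the 316 members, 18 (5.7%) did, whereas 145 (45.9%) had it in ORF1 and 139 (44.0%) in ORF2. All shared LINE-1 regions had 13.9% in ORF1 and 16% in ORF2. Between both reading frames lay 8 members, and 6 lay after ORF2.

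The summits were also uneven within the reading frames. The bin of 1000 to 1250 bp from the ORF1 start, around the end of ORF1, held 57 members (18%), and the bin of 2750 to 3000 bp, inside ORF2, held 38 (12%). These bins were also the largest within the reading frames over all shared LINE-1 regions, with 5.58% and 5.09%. Members were 36.1% and 26.4% of the shared regions of these bins. In the bin from -1000 to -750 bp, which held 29.3% of all shared LINE-1 regions, there was 1 member. From -250 to 1750 bp, members were 35.4% to 41.9% of the shared regions of each bin. Position was not used by the rule, and no test was made of it.

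**Figure D4:**
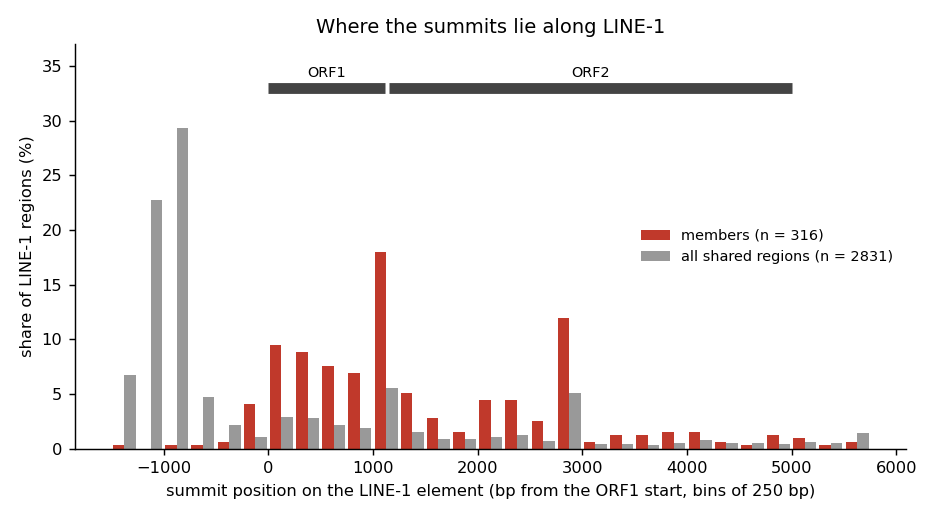
Share of LINE-1 regions (%) by summit position along the element in bp from the ORF1 start, in bins of 250 bp, for the 316 members (red) and all 2831 shared LINE-1 regions (grey), with bars above for ORF1 and ORF2. Members peak at 18% in the bin from 1000 bp and 12% in the bin from 2750 bp, and all shared LINE-1 regions at 29.3% in the bin from -1000 bp.

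Most LINE-1 members were sequence of many copies. A 49-base word around their summits was found 1484 times in the genome in the median, beside 1 time over all shared regions and over all shared LINE-1 regions. Over all 500 members the median was 218 copies, and 184 members (36.8%) had a median of 1000 copies or more, beside 1.1% of all shared regions. The reads had been kept only where they mapped to 1 place. In the 200 bp around the summit, 437 members (87.4%, beside 91.8% of all shared regions) held at least 1 word found once.

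In the LINE-1 members that single-copy part was short. In 600 bp around the summit, 162 of the 316 LINE-1 members had 1 run of words found once, and the longest run was 44 words in the median. For 231 of them no run was longer than 49 words, the number of words that 1 changed base can alter. The centre of the nearest run lay 19.5 bp from the summit in the median. For 21 LINE-1 members no word in the window was found once. The 12 members of highest rank had 1 run each, of 40 to 46 words.

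Gaps like those in the pairs were common among the LINE-1 members. Of the 290 members whose 200-bp window aligned over at least 190 bp to the closest intact LINE-1 of chromosome 1, 280 (96.6%) had a gap, and in 267 (92.1%) a gap lay within 50 bp of the summit. The gap nearest to the summit was 16 bp away in the median, was 10 bases long in the median and at most 49, and was missing bases in 166 members and added bases in 114. Of the 654 shared LINE-1 regions outside the members that aligned the same way, 81.8% had a gap and 67.0% had one within 50 bp. As a background, 1702 windows from LINE-1 copies of chromosome 2 were aligned, of which 23.4% had a gap and 14.5% one within 50 bp of the centre. These windows came from copies aligned to ORF1 and ORF2 over at least 1000 bp at 85% identity or more, with or without a peak. Reads had been kept only where they mapped to 1 place. A peak in repeated sequence thus needs a difference from other copies, and these windows do not, so the shares are not like for like. The identity of the windows to the closest copy was 97% in the median, beside 94.1% for the members. Gap positions count as differences in this identity, so it is not a measure separate from the gaps.

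All 46 LINE-1 members among ranks 1 to 50 had a gap within 50 bp. Each of the 12 members of highest rank had exactly 1 gap, of 4 to 32 bases, at 3 to 35 bp from the summit. Near Klf4 it was 32 missing bases, near Slc39a10 5 missing bases, in Ntrk3 7 missing bases and near Ctnna2 21 missing bases. Gaps were set against the copies of 1 chromosome of the reference, and the copies in the genome of the cells themselves were not analysed here. The part of unique mapping in the enrichment of these regions was not tested.

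In the median, CpG was scarcer at members than over all shared regions. The median was 1.5 CpG per 100 bp around the summit, beside 3.5 over all shared regions, with an observed over expected ratio of 0.434 beside 0.598 and a GC content of 40.0% beside 49.5%. LINE-1 members had 1.0 CpG per 100 bp, and all shared LINE-1 regions 2.5. IAP-type LTRs had 5.5 in members and in all shared regions, and single-copy members had 4.0, beside 3.0.

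At most 2 CpG in 200 bp were found at 187 members, of which 176 were LINE-1. No CpG was found in the 200 bp of 48 members (9.6%, beside 0.654% of all shared regions), of which 42 were LINE-1. In 5 members the whole joined region had none. Near Pcdh17 (rank 7), where the 200 bp held 0 CpG, the fold enrichment was 26.7, 27.5 and 24.8 in control and 25.3, 26.2 and 26.4 in TGF-β1-treated samples, within the range of the other members of highest rank. At the other end, 127 members had 8 CpG or more, among them 45 of the 54 IAP-type LTRs and 1 LINE-1. Across members, mean fold enrichment and CpG number had a Spearman rho of -0.28 (n = 500), and within LINE-1 members it was 0.01 (n = 316). Over all shared regions it had the other sign (0.14, n = 40840). These were not ranked by fold enrichment, but each had to be called as a peak over the background in every sample. The peaks do not give the methylation of single CpG.

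Of the 54 IAP-type members, 30 had their summit in the LTR and 24 in the internal part. The highest-ranked had rank 60. The member at Ttll4 (chr1:74706587-74707259) had a fold enrichment of 14.8, 14.2 and 15.5 in control and 14.4, 16.1 and 15.3 in TGF-β1-treated samples, and the groups overlapped. No other joined region lay within 5 kb of 26 of the 54 IAP-type members, and of 278 of the 316 LINE-1 members.

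Single-copy sequence held 64 members, and 3 of them were above 20 in all 6 samples. In 28 of the 64, every 49-base word of the 600 bp around the summit was found once. The highest-ranked of the 64 was in exon 21 of Lars2, which codes for the mitochondrial leucyl-tRNA synthetase, in the untranslated part at chr9:123370860-123371365. It had a fold enrichment of 26.3, 25.6 and 25.5 in control and 24.8, 26.5 and 24.7 in TGF-β1-treated samples, with 11 CpG in 200 bp. Of the words of these 200 bp, 68.4% were found once. The groups overlapped. It is named here after its values were seen.

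Few members lay in genes. By the summit and the protein-coding transcripts, 373 members (74.6%) were intergenic and 110 (22.0%) in introns, beside 45.8% and 39.2% of all shared regions. The CDS held 7 members (1.4%, beside 8.07%), Up2k 4 (0.8%, beside 2.58%), Down2k 4 (0.8%, beside 2.86%) and untranslated parts 2 (0.4%, beside 1.47%). Up2k and Down2k are the 2 kb before and after a transcript. They were given before untranslated parts and introns, so that such a summit can lie inside a gene. LINE-1 members were intergenic in 80.1% and in introns in 18.4%.

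The 7 members in the CDS were all single-copy. The 4 of highest rank were in exon 2 of Rab22a, in exon 11 of Aff4 (a scaffold of a transcription elongation complex), in exon 2 of Cdrt4 and in exon 3 of Dnaja2 (a co-chaperone of heat shock proteins). In Rab22a (chr2:173486739-173487234) the fold enrichment was 17.1, 15.6 and 18.4 in control and 13.6, 15.5 and 18.3 in TGF-β1-treated samples. In Aff4 (chr11:53213406-53213885) it was 15.3, 15.6 and 18.4 in control and 14.4, 13.7 and 16.2 in TGF-β1-treated samples. The groups overlapped in both. Cdrt4 had a mean of 14.7 ± 0.986 and Dnaja2 of 14.7 ± 2.35 (SD, n = 6). The 200 bp around these 4 summits, not limited to the exons, held 7 to 11 CpG.

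Of the 4 members in Up2k, those of Gm17621 (rank 134) and Sycp1 (rank 458, a component of the synaptonemal complex of meiosis) were LINE-1, that of Ttll4 was an IAP-type LTR and that of Fstl4 (rank 467, a follistatin-like gene) was single-copy. Only the member at Gm17621, 252 bp from the start, lay within 500 bp of a transcription start, as did 592 of all shared regions. Its fold enrichment was 20.7, 17.3 and 18.7 in control and 19.1, 20.1 and 20.5 in TGF-β1-treated samples. At Sycp1 the values were 14.8, 15.2 and 13.3 in control and 15.3, 14.4 and 14.0 in TGF-β1-treated samples. The groups overlapped at both. The highest-ranked member in Down2k was 1.96 kb from Prl3d3, a gene of the placental prolactin family (rank 13, 25.6 ± 0.848, SD, n = 6), and is named after its values were seen.

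The median distance to the nearest protein-coding gene was 63.6 kb for members and 0 kb for all shared regions, and 213 members (42.6%, beside 14.0%) were over 100 kb away. LINE-1 members had a median of 96.4 kb, IAP-type LTRs of 89.0 kb and single-copy members of 0.938 kb. To the nearest transcription start it was 117 kb for members, beside 30.3 kb.

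Of the 21418 protein-coding genes of chromosomes 1 to 19, 124 (0.579%) had a member in the gene or within 2 kb, and 9370 (43.7%) had a shared region. Among gene lists of this tissue, none of the 12 mesangial, 8 podocyte, 8 endothelial, 9 tubule and 5 leukocyte genes examined had a member. There was also none at 42 genes of TGF-β signalling, of which 26 had a shared region, at 28 fibrosis genes, of which 21 did, at 41 collagen genes, of which 33 did, and at 15 genes of the methylation machinery, of which 11 did. The same held for 49 imprinted genes, 39 Hox genes, 24 clustered protocadherin genes, 67 clustered histone genes, 131 Tbx, Pax, Fox and Sox genes and 1106 olfactory receptor genes. Of 45 germline genes 1 had a member (Sycp1), of 358 numbered Zfp genes 1 (Zfp961, rank 168, in Down2k) and of 326 vomeronasal receptor genes 1 (Vmn2r7, rank 434, intron 4).

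Members were found on all 19 chromosomes. As a share of the shared regions of a chromosome they were highest on chromosomes 3 (2.22%) and 7 (2.04%) and lowest on chromosome 10 (0.529%). Only 31 members lay within 100 kb of another, in 15 runs. The longest run was 3 members on chromosome 5, from 747 to 880 kb from Pcdh7 (a protocadherin), of which ranks 31 and 43 were LINE-1 ORF2 and rank 160 was the internal part of an IAP-type element. Their mean fold enrichment was 24.2 ± 0.972, 23.2 ± 1.27 and 18.6 ± 1.42 (SD, n = 6).

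The groups were compared by the highest pileup of each region. With limma, fitted over all 40840 shared regions on log2 pileup after subtraction of the sample median, 41 members (8.2%) had an unadjusted p below 0.05, beside 4.14% of all shared regions. Of these, 12 were higher in TGF-β1-treated samples (background 1.95%) and 29 were lower (background 2.19%). After Benjamini-Hochberg adjustment over all shared regions the lowest adjusted p of a member was 0.999 with limma, and 0.643 over all regions. No member passed an adjusted p of 0.01 with an absolute log2 fold change above 2 (0 of 500, and 0% of all shared regions). The difference in the median member was -0.073 on the log2 scale, with a range from -0.78 to 0.56, and it was -0.005 over all shared regions.

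Among the members, 67 (13.4%) had values that did not overlap between the groups, beside 9.26% of all shared regions. Of these, 57 were lower (background 4.94%) and 10 higher (background 4.32%) in TGF-β1-treated samples. LINE-1 members had a median difference of -0.093 and all shared LINE-1 regions one of -0.032. IAP-type members had -0.073, beside 0.009 over all shared regions of that class, and single-copy members -0.051, beside -0.006. The calls at an unadjusted p below 0.05 were 9 higher and 19 lower in LINE-1, 0 and 6 in IAP-type LTRs, 1 and 0 in other LTRs, 0 and 2 in unmatched repeats and 2 and 2 in single-copy members. Over all shared regions of a class, 5.93% of LINE-1 were called (69 higher and 99 lower), 3.52% of IAP-type LTRs (91 higher and 61 lower), 3.73% of other LTRs, 4.61% of unmatched repeats and 4.05% of single-copy regions. The 6 called IAP-type members were lower, and the called members of all classes leaned lower too (12 higher and 29 lower). These calls are unadjusted, and no member had an adjusted p below 0.05 with limma.

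**Figure D5:**
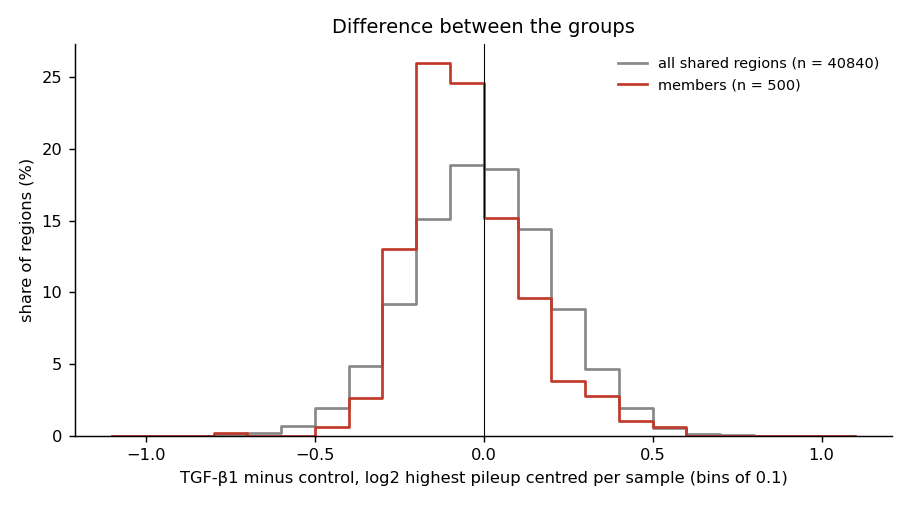
Share of regions (%) by the difference between the groups (TGF-β1 minus control, log2 highest pileup centred per sample, bins of 0.1) for the 500 members (red) and all 40840 shared regions (grey). Members are most frequent between -0.2 and -0.1 with 26.0%, where all shared regions have 15.1%, and no member lies beyond -0.78 or 0.56.

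These counts depended on the scaling and on single samples. When fold enrichment replaced pileup, 27 members (5.4%, beside 4.41% of all shared regions) had a p below 0.05 with limma. Of these, 18 were higher (background 2.03%) and 9 lower (background 2.38%), so that the balance turned. The values of 43 (8.6%, beside 9.7%) did not overlap. Divided by the read number of each sample, 104 members (20.8%, beside 6.18%) were called, 4 higher (background 0.512%) and 100 lower (background 5.67%). The median was -0.164, beside -0.096 over all shared regions, so that this scaling moved all shared regions towards lower values too. Without the trend of the variance on the mean level in limma, 10 were called (2%, beside 4.24%), 7 higher and 3 lower, and the share of members was then below that of all shared regions. Leaving out control replicate 3 gave 79 members (15.8%, beside 5.4%), TGF-β1 replicate 1 gave 18 (3.6%, beside 3.19%) and TGF-β1 replicate 3 gave 26 (5.2%, beside 3.67%). Without TGF-β1 replicate 1 the share of members was near that of all shared regions. Leaving out control replicate 2 gave 28 (5.6%, beside 4.4%) and TGF-β1 replicate 2 gave 37 (7.4%, beside 3.59%). Joining peaks up to 200 bp apart gave 41 (8.2%, beside 4.13%), and a -log10 q of at least 5 gave 30 (6%, beside 4.13%). Without control replicate 1, the sample that stood apart, 44 members were called (8.8%, beside 5.9%), 21 higher and 23 lower, and the median difference was -0.042.

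The 3 members with the smallest p in each direction are given with their values. The smallest p of all was at single-copy sequence near Gm5614, a predicted gene (chr9:35112692-35113321, rank 76). Its scaled pileup was 17.1, 16.7 and 14.7 in control and 11.9, 11.6 and 12.5 in TGF-β1-treated samples, and the groups did not overlap. The log2 difference was -0.33 with an SE of 0.10 (limma, adjusted p = 0.999). In intron 45 of Sis, which codes for the gut enzyme sucrase-isomaltase, a LINE-1 member had 9.01, 6.80 and 7.31 in control and 6.12, 4.67 and 4.82 in TGF-β1-treated samples (log2 difference -0.48). In intron 10 of Stk3, a kinase of the Hippo pathway, a LINE-1 member had 15.1, 14.8 and 13.1 in control and 11.1, 11.4 and 10.4 in TGF-β1-treated samples (log2 difference -0.30). At both, every control value was the higher in scaled pileup, and at Sis the groups overlapped after centring.

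In the other direction, the smallest p was at an LTR in intron 7 of A1cf, a cofactor of Apobec1 in RNA editing. Its scaled pileup was 2.62, 3.51 and 4.52 in control and 4.63, 4.04 and 5.94 in TGF-β1-treated samples (log2 difference 0.56, SE 0.18). A LINE-1 member near Sult2a5, a sulfotransferase gene, had 2.52, 2.98 and 3.39 in control and 5.10, 4.12 and 3.01 in TGF-β1-treated samples (log2 difference 0.53). A LINE-1 member near Olfr177, an odorant receptor gene, had 4.36, 2.98 and 4.09 in control and 5.02, 5.70 and 4.21 in TGF-β1-treated samples (log2 difference 0.49). The groups overlapped at all 3. The adjusted p was 0.999 for each of these 6 members with limma.

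Among the 12 members of highest rank, the largest difference was near Klf4, with a scaled pileup of 17.2, 18.7 and 17.1 in control and 14.3, 14.4 and 14.8 in TGF-β1-treated samples (log2 difference -0.20, SE 0.09, limma, adjusted p = 0.999). Near Tmx4 there were 20.3, 21.8 and 17.8 in control and 17.1, 16.4 and 17.1 in TGF-β1-treated samples (log2 difference -0.15). By scaled pileup both were higher in every control sample, whereas near Tmx4 the groups overlapped after centring.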

How the data were processed

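The deposited files were 6 MeDIP-seq peak lists, 1 per sample. Per the authors' methods and the file headers, clean reads were aligned to mm9 with BWA, reads that mapped to 1 place were kept, once for each start position, and MACS2 (2.1.0.20150731) called peaks in each sample at a q-value cutoff of 0.01, with no input. The deposited pileup is a signal of extended reads not scaled to depth, the deposited fold enrichment is a ratio to the local background, and the deposited -log10 q-value was used in an alternative only. Peaks were joined with Python 3.11.15. Group tests used limma 3.58.1 in R 4.3.3, which was checked on simulated data. Up2k, Down2k and CDS came from GENCODE vM1, and sequences were read from the NCBIM37 (mm9) reference and matched with blastn 2.17.0. The reference holds no lower-case bases, so the planned share of soft-masked repeats could not be computed, and the matches to LINE-1, LTRs and gaps were chosen after seeing the data.

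The members and gene lists were chosen with earlier results of these data known. Regions named are the 12 of highest rank, 3 on each side of rank 500, the 3 smallest p in each direction, the 4 highest in CDS, Up2k and near starts, those at listed genes and the longest run, of which 1 region of the highest ranks is not reported here. A shared region had a peak in every sample, so none was missing a value. Deviations from the group mean in same-numbered samples of both groups had r of -0.047, 0.043 and -0.129 across regions. Differently numbered samples of both groups had r from -0.122 to 0.167. The labels do not say whether the numbers pair samples, and these r cannot decide it. At most 6.58% of the shared regions had equal pileups in any pair of samples, and all were counted as separate. Alternatives were other measures and scalings, joining peaks up to 200 bp apart, a -log10 q of at least 5, other ways of ranking, a replicate block, and fits without 1 sample. Read counts per region were not used here.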

Additional observations from a re-analysis of the deposited data

How the results depend on the processing

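Of the 500 members, 480 stayed among the 500 highest by the median of the 6 samples, 440 by the lowest, 478 to 485 when a sample was left out, and all when peaks up to 200 bp apart were joined or a -log10 q of at least 5 was asked. Ranked by scaled pileup, 236 (47.2%) did. At an unadjusted limma p below 0.05 the count of 41 members moved to 27 with fold enrichment, 104 with division by read number, 10 without the trend, 18 to 79 when a sample was left out, and 0 at an adjusted p below 0.05. Non-overlapping members moved from 67 to 43 with fold enrichment and 157 with division by read number. The count past the strict thresholds was 0 under every alternative run. With the replicate number as a replicate block, 39 members were called (7.8%, beside 3.64% of all shared regions), 12 higher and 27 lower, and none passed the strict thresholds. Of all values under the alternatives, 63 stayed within 1.5 times the reported count or share, or within 1 SD over the members for the sequence medians, and 26 did not. Among 1000 members the median was 3.0 CpG per 100 bp, against 1.5.

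Of gene elements, the CDS share of 1.4% was 0% among 250 members and 4.7% among 1000. That of Up2k (0.8%) was 0.4% among 250, 1.4% among 1000 and 1.8% with transcripts of every biotype. That of Down2k was 1.4% among 1000 and 1.8% with every biotype, and untranslated parts were 1% with every biotype. LINE-1 (63.2%) was 40.6% among 1000 members and 32.6% by scaled pileup. By scaled pileup, IAP-type LTRs were 26.6%, other LTRs 5.8% and unmatched repeats 18.6%. Other LTRs were 1.2% among 250. Single-copy sequence was 3.6% among 250 and 30.4% among 1000. The cause of these shifts was not tested. The planned share of soft-masked repeats was not run. Shares of small classes rest on few regions, and 3 samples against 3 limit the group comparison.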

Other observations

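Outside chromosomes 1 to 19, 3606 regions were joined, and 904 had a peak in all 6 samples. Of these, 53 had a mean fold enrichment at or above that of the lowest member, 39 on chromosome X, 3 on chromosome Y, 11 on unplaced or random sequence and 0 on the mitochondrial chromosome.

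Ranking by scaled pileup (per 1000000 reads) gave another picture of the strongest shared regions. Among the 500 highest, IAP-type LTRs held 133 regions (26.6%), LINE-1 163 (32.6%), unmatched repeats 93 (18.6%) and single-copy sequence 82 (16.4%). Of the 4314 shared IAP-type regions, 67.5% had the summit in the LTR, with a median of 5.0 CpG per 100 bp, and 32.5% in the internal part, with 7.0.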
